A study of Homo sapiens with 6 samples.

Results

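The ABC transporter family comprises proteins that bind and hydrolyse ATP through a shared nucleotide-binding cassette, and it is sorted by sequence into subfamilies named A to G. Its members were taken here by symbol, as every gene whose name is ABC followed by a letter from A to G and a number. This gave 43 genes of the 22077 in the table, namely 12 of subfamily A, 9 of B, 11 of C, 3 of D, 1 of E, 3 of F and 4 of G. A gene was tested when at least 10 counts were seen in at least 3 of the 6 libraries, which held for 34 of the 43 members and for 14309 genes in all.

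Most ABC proteins move a substrate across a membrane at the cost of ATP. In hepatocytes, the epithelial cells of the liver, ABC pumps of the canalicular membrane deliver bile salts, phospholipid, cholesterol and conjugated bilirubin into bile, whereas pumps of the basolateral membrane return conjugates to blood. Several of them also export anticancer drugs and are studied in hepatocellular carcinoma for that reason. Members of subfamilies E and F lack membrane-spanning parts and act on ribosomes.

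The libraries compared cells that overexpress TKT, the transketolase of the pentose phosphate pathway, with control cells that the labels give as wild type, 3 libraries each, with no further treatment in the labels. According to the study's methods, the TKT plasmid (pTSB02-GFP-PURO) was transfected and the cells were put under selection. Control libraries are titled VC with a replicate number, and the plasmid content of the control cells is not given in the labels. Whether the controls carried an empty plasmid is therefore not known here. The cells were taken as Huh7, a human hepatocellular carcinoma line, which the study's Results name for this experiment and which the labels spell Hu7, although its methods name HCCLM3, another such line. Labels number the libraries of a group as replicate biosamples but do not say whether they came from separate cultures, so p-values measure only the spread between these samples.

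The libraries held between 30148788 and 37096156 counts. TKT lay between 9386 and 9545 CPM (counts relative to library size, after edgeR's TMM scaling) in the TKT-overexpressing libraries and between 469 and 514 CPM in the control libraries, a 19.1-fold difference. Of 9 hepatocyte markers, 8 were tested and 2 passed the test used for the family. FGB, which encodes a fibrinogen chain, was higher in TKT-overexpressing libraries (578 ± 12.4 against 817 ± 8.99 CPM, SD, n = 3 each, log2 fold change 0.50, adjusted p = 8.7e-10 by edgeR), and HNF4A was lower. The part of these marker differences in the values of the family was not tested. ALB, which encodes albumin, lay between 7796 and 8151 CPM in the 6 libraries, while APOB, which encodes the apolipoprotein of secreted lipoproteins, had at most 6 counts in any library. The bile duct markers KRT7 and KRT19 also had at most 6 counts, though SOX9 and EPCAM, of the same list, had 5079 to 6094 and 1015 to 1279. The immune markers CD68 and CD3E had at most 2 counts, and of the endothelial list VWF had at most 2 whereas PECAM1 had 472 to 717.

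Start-site sequences are shown for 4 of the members that passed the test, so that the letters before the gene can be read beside the values. RefSeq windows (GRCh38.p14) covered 33 of the 43 members, and the 250 bases before the annotated start are printed 5′ to 3′ on the strand of the gene. The capitals mark any of 8 motifs searched on both strands. ABCB1 is on the minus strand at chr7:87600885-87601134, ABCA1 on the minus strand at chr9:104928156-104928405, ABCC2 on the plus strand at chr10:99782390-99782639 and ABCA3 on the minus strand at chr16:2340729-2340978.
ABCB1: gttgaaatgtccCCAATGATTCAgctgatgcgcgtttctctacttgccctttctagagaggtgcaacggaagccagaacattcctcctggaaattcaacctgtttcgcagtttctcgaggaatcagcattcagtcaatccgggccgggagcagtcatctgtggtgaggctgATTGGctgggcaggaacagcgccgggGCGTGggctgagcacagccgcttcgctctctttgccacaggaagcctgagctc
ABCA1: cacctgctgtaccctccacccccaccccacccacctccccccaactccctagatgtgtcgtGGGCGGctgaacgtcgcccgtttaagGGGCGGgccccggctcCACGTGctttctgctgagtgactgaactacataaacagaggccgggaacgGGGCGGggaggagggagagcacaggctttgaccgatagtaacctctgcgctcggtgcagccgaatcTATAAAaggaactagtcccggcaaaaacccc
ABCC2: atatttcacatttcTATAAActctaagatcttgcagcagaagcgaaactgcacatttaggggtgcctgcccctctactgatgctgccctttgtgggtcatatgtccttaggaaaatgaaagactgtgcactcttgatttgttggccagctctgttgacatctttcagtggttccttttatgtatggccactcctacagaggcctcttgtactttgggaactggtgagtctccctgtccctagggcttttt
ABCA3: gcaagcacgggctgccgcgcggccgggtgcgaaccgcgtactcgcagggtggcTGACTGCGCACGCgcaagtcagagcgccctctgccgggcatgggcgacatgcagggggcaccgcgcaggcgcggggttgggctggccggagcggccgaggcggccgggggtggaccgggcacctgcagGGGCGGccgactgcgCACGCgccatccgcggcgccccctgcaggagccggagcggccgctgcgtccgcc

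The ABCB1 window held the AP-1 letters TGANTCA, which 4 of the 33 members and 6.57% of all 35116 windows held, and they share 1 base with a CCAAT box (10 members, 32.0% of windows). It also held a further CCAAT box and the xenobiotic response element core GCGTG (15 members, 32.2% of windows). In these counts a member has the motif in any of its windows, whereas the percentages are of single windows. As some members have several windows, the counts and the percentages are not in the same unit. The ABCA1 window held an E-box CACGTG (8 of 33 members, 6.34% of windows), GC boxes GGGCGG (19 members, 42.6%) and a TATAAA (6 members, 10.7%). The ABCC2 window held a TATAAA alone of the searched motifs. The ABCA3 window held the antioxidant response element core TGACNNNGC (8 members, 10.9% of windows) sharing 1 base with a GCGTG core, as well as another GCGTG core and a GC box. For the liver X receptor element, only exact letters were searched, AGGTCA repeated after 4 free bases. They were in no window of the 33 members and in 0.0142% of all windows, or 5 windows. Elements that differ from these letters were not searched, so their absence from a window cannot be read from this. Base composition of the printed windows ran from 45.6% G and C for ABCC2 and 55.6% for ABCB1 to 79.2% for ABCA3, against a median of 58.0% over all windows. A second ABCB1 window lies farther upstream at chr7:87713296-87713545, with 39.2% G and C and none of the motifs. ABCA5 and ABCC6, which also passed the test, had windows that are not printed. That of ABCA5 held a GCGTG core and a GC box, whereas both ABCC6 windows held none of the motifs. A match is a description of letters only, and no binding was measured. Among the members with no window in the reference were ABCA4, ABCA8, ABCB4, ABCB5, ABCC1, ABCC3, ABCC8 and ABCG1. Of these, ABCC3 passed the test.

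Levels of the family were first compared within the control libraries, on the deposited FPKM scale (counts scaled by gene length and library size), which allows different genes to be set side by side. The highest member was ABCC2, the canalicular export pump for bilirubin glucuronides and other conjugates, with 42.5, 44.3 and 41.0 FPKM in control libraries 1, 2 and 3 (42.6 ± 1.70, SD, n = 3). ABCE1, which splits ribosomes after translation, followed with 32.2 ± 0.579 FPKM (SD, n = 3). ABCD3, which carries long and branched acyl groups and bile acid precursors into peroxisomes, had 20.6 ± 0.985 FPKM (SD, n = 3), and ABCF3, a cytosolic ATPase linked to ribosomes, had 18.0 ± 0.976 (SD, n = 3). In that order, the control libraries of neighbouring genes did not overlap down to ABCF2. From ABCB10 to ABCB8, with means between 5.28 and 5.33 FPKM, they did.

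ABCC2 alone made up 22.1% of the summed FPKM of the 43 members in control cells, and the 5 highest members made up 63.6%. Of the 43 genes, 4 had a control mean of at least 10 FPKM, 18 lay between 1 and 10, 7 between 0.1 and 1 (among them ABCF1, whose counts are at 0 in 1 control library), and 14 below 0.1. The 7 members listed for the bile canaliculus ran from the top of the family to its lowest genes. ABCC2 was the highest of all, and ABCG2 and ABCB1 had control means of 4.92 and 3.00 FPKM. ABCB11, the bile salt export pump, had 10, 6 and 8 counts in the control libraries (0.0324 FPKM). ABCG5 and ABCG8, which together secrete sterol into bile, had at most 9 and 2 counts in any library and were not tested. ABCB4, which flips phosphatidylcholine into bile, was at 1.51 ± 0.0507 FPKM (SD, n = 3).

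The comparison of TKT-overexpressing with control cells asked which family members changed in transcript level when TKT was raised. By edgeR's quasi-likelihood test with p-values adjusted by Benjamini-Hochberg over all 14309 genes and a threshold of 0.05, 6 of the 34 tested members were higher and 1 was lower. The background over all tested genes was 5.65% higher and 4.93% lower, against 17.6% and 2.94% of the members. The genes that rose were ABCB1, ABCC3, ABCA3, ABCC2, ABCC6 and ABCA5, and the gene that fell was ABCA1. The folds of these 7 genes lay between 0.866 and 1.39. With limma on log2(FPKM + 1) or log2(FPKM + 0.1), 1 of the 7 was called, ABCB1. In RNA from bulk cells, a change in how many cells express a gene and a change in RNA per cell cannot be told apart.

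The median log2 fold change of the 34 members was 0.02 and that of all tested genes 0.00, with 19 members above zero and 15 below. Libraries of both groups did not overlap for 13 members (background 27.9% of genes), 10 with TKT-overexpressing cells higher and 3 lower, where the background was 14.1% and 13.8% of genes. At the fold threshold of the study, an absolute log2 fold change over 1 with an adjusted p-value under 0.05, edgeR called 0 members and 0.748% of all genes. At an unadjusted p-value under 0.05 the test gave 11 members (background 23.7%), and 2 of these, ABCA4 and ABCA10, were past that fold (background 1.53%). DESeq2 called 0 at the adjusted threshold as well, whereas edgeR without a filter on low counts called 1, ABCA4 (adjusted p = 0.0292). Without TKT-overexpressing library 2, edgeR also called 1, ABCA4 (adjusted p = 0.0362).

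**Figure D1:**
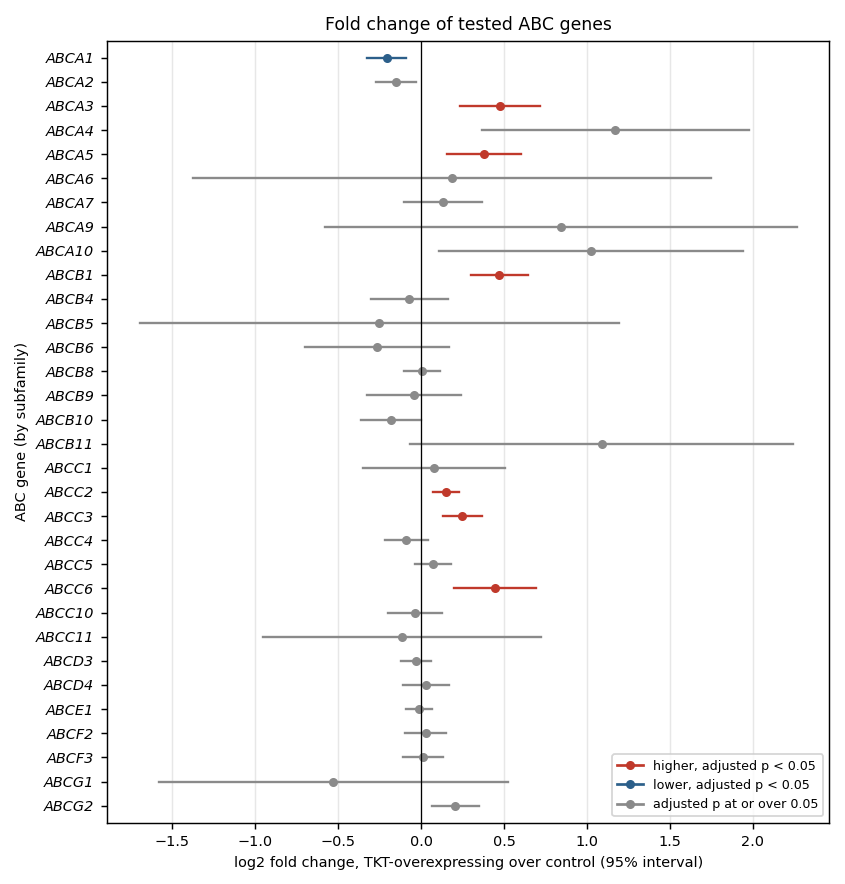
Log2 fold change of TKT-overexpressing over control libraries for 32 of the 34 tested ABC genes by subfamily, with 95% intervals from edgeR (red, higher; blue, lower; grey, adjusted p at or over 0.05). The called changes lie between -0.21 and 0.48, and the widest intervals belong to genes with few counts such as ABCA6 and ABCB5.

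Of 12 members listed as drug and conjugate pumps, 11 were tested, 4 rose and 0 fell, and their median log2 fold change was 0.08. Over all tested genes 5.65% were higher and 4.93% lower with a median of 0.00, and the list was drawn up with earlier results of these data known. ABCB1 encodes P-glycoprotein, which pumps a wide range of hydrophobic drugs out of cells and is also found on the canalicular membrane. Its GRCh38 coordinates (GENCODE 29, used for all gene positions given here) are chromosome 7, 87503633 to 87713323, minus strand. ABCB1 had 26.1, 27.7 and 26.7 CPM in TKT-overexpressing libraries 1, 2 and 3 and 18.7, 21.2 and 18.3 CPM in the control libraries. The lowest TKT-overexpressing library lay above the highest control library by more than the range within either group. The log2 fold change was 0.47 ± 0.08 (SE, n = 3 per group), a rise of 38.6% with an adjusted p = 0.00066 from edgeR, and it was past the threshold in 16 of 16 alternative settings.

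ABCB4, the nearest relative of ABCB1 and its neighbour on chromosome 7 (87401697 to 87480435, minus strand), was measured in the same libraries at 424, 371 and 330 counts on overexpression and 357, 364 and 397 counts in control cells. Its groups overlapped (log2 fold change -0.07, 95% interval -0.30 to 0.16, adjusted p = 0.769 by edgeR). Count ratios between members or with a pseudogene were formed for 6 pairs, chosen after values were seen and given with no test. Each numerator was a called gene, so a lack of overlap was favoured by the choice and is not read as a result. The ratios of ABCC6 to ABCC1 and ABCA5 to ABCA10 overlapped between groups. The ratio of ABCB1 to ABCB4 was 2.42 ± 0.213 with TKT raised against 1.65 ± 0.111 without (SD, n = 3 each). The span of ABCB1 covers 85776 bases of RUNDC3B on the opposite strand. The strand setting of the counting is not given in the sources used here, and RUNDC3B had a mean of 21.0 counts per library, against 588 to 968 for ABCB1.

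ABCC3, which exports glucuronides and bile acids across the basolateral membrane, lies on chromosome 17 from 50634777 to 50692252 on the plus strand. It had 51.4, 47.9 and 51.9 CPM in the TKT-overexpressing libraries and 41.8, 43.6 and 41.9 CPM in the control libraries. The groups did not overlap. Its log2 fold change was 0.25 ± 0.06 (SE, n = 3 per group), 18.8% higher, with an adjusted p = 0.00599 from edgeR, which stayed under 0.05 with each library left out in turn (0.00364 to 0.0499). It was past the threshold in 14 of 16 alternatives and lost with limma on log2(FPKM + 1) (adjusted p = 0.0777) and on log2(FPKM + 0.1) (0.0709).

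ABCC2, on chromosome 10 from 99782640 to 99852594 on the plus strand, had 364, 366 and 388 CPM on overexpression and 336, 346 and 324 CPM in control cells. TKT-overexpressing library 3 was the highest and control library 3 the lowest, and the groups did not overlap. The rise was the smallest of the called genes, 11.1% (log2 fold change 0.15 ± 0.04, SE, n = 3 per group, adjusted p = 0.0123 by edgeR). It was not past the threshold without TKT-overexpressing library 3 (adjusted p = 0.0648), control library 1 (0.0525) or control library 3 (0.0648).

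ABCC6, a basolateral transporter of liver whose loss causes ectopic calcification, lies on chromosome 16 from 16148928 to 16223522 on the minus strand. It had 14.7, 14.4 and 17.9 CPM on overexpression and 11.1, 13.3 and 10.1 CPM in control cells. The groups did not overlap, with TKT-overexpressing library 3 standing above the other two. The log2 fold change was 0.45 ± 0.12 (SE, n = 3 per group, adjusted p = 0.0177 by edgeR). Without TKT-overexpressing library 3 the adjusted p was 0.122, without control library 1 it was 0.0752 and without control library 3 it was 0.0914.

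ABCC6 has a near-identical pseudogene, ABCC6P1, so reads may be divided between both and the ABCC6 value is uncertain. ABCC6P1 had 445, 310 and 378 counts on overexpression and 336, 396 and 444 counts in control cells, with a log2 fold change of -0.14 (adjusted p = 0.529 by edgeR). The count ratio of ABCC6 to ABCC6P1, another of the 6 ratios, was 1.41 ± 0.167 against 0.941 ± 0.152 (SD, n = 3 each).

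ABCG2, the breast cancer resistance protein and another broad drug pump, had 32.2, 31.3 and 32.5 CPM on overexpression and 28.8, 27.2 and 27.1 CPM in control cells. The groups did not overlap, but the adjusted p was 0.0573 by edgeR (log2 fold change 0.21, 95% interval 0.06 to 0.35). It was past the threshold in 2 of 16 alternatives, with upper-quartile factors (0.0440) and with a minimum of 50 counts (0.0430).

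The remaining tested pumps of this role did not pass the test. ABCC1, which exports glutathione conjugates and leukotriene C4, had a log2 fold change of 0.08 (95% interval -0.35 to 0.51). ABCC4, which exports cyclic nucleotides and bile acids, was at -0.09 (-0.22 to 0.04). The cyclic nucleotide and conjugate pump ABCC5 was at 0.07 (-0.04 to 0.18) and its relative ABCC10 at -0.04 (-0.20 to 0.13). ABCC11, a lipophilic anion pump of secretory glands, and ABCB5, a relative of ABCB1, had at most 42 and 14 counts in any library and intervals that spanned more than 1 on the log2 scale. ABCC12 had at most 2 counts and was not tested.

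Of the 7 members listed for the bile canaliculus, 5 were tested and 2 of them rose, against a background of 5.65% of genes. These are ABCB1 and ABCC2, which are also counted among the drug pumps. The bile salt pump ABCB11 had 27, 14 and 14 counts on overexpression against 10, 6 and 8 in control cells. The groups did not overlap, although control libraries 2 and 3 were under 10 counts and the test gave an adjusted p = 0.247 by edgeR (log2 fold change 1.09, 95% interval -0.07 to 2.25).

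**Figure D2:**
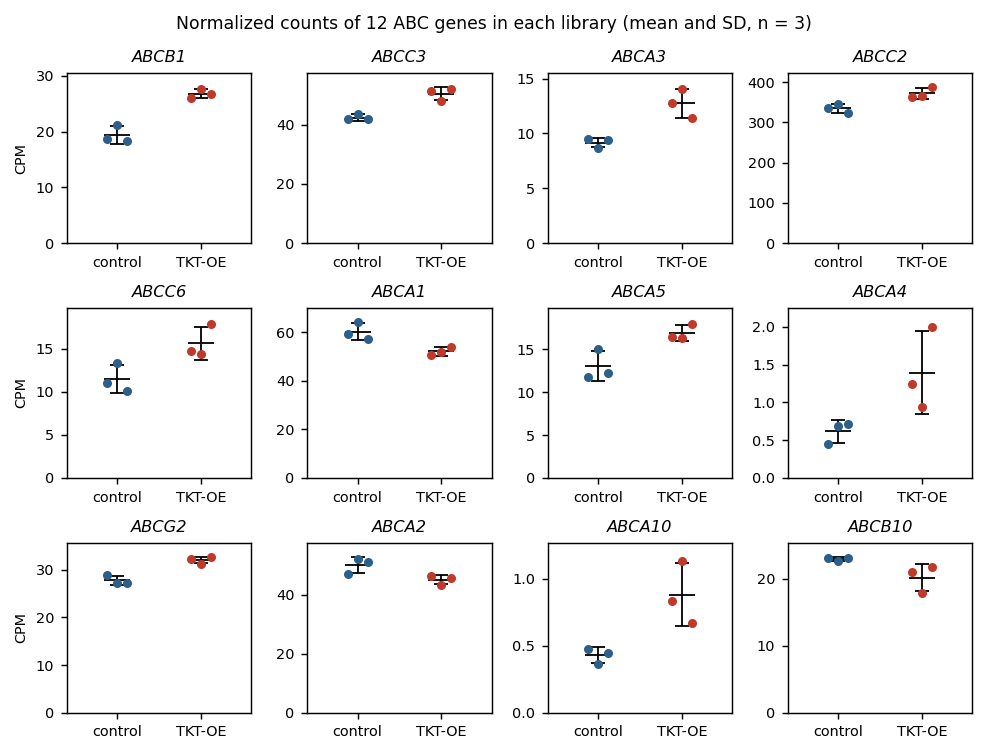
Normalized counts (CPM, axes from 0) of the 12 ABC genes with the smallest p-values in the 3 control (blue) and 3 TKT-overexpressing (red) libraries, with mean and SD. Both groups are apart for every gene shown, which the choice by p-value favours (27.9% of all tested genes do not overlap). For ABCC2 the gap is small beside the level (324 to 346 against 364 to 388 CPM).

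The gene that fell, ABCA1, was in the list of lipid exporters, which does not hold every member that handles lipids. Of 21 tested members annotated with lipid transport in the deposited data, 5 were higher and 1 lower. Of 4 annotated with cholesterol efflux, 1 (ABCA5) was higher and 1 (ABCA1) lower. Over all tested genes, 5.65% were higher and 4.93% lower. ABCA1 loads cholesterol and phospholipid onto apolipoprotein A-I and so begins the formation of high-density lipoprotein. It lies on chromosome 9 from 104781002 to 104928237 on the minus strand. ABCA1 had 50.6, 51.8 and 54.1 CPM on overexpression and 59.5, 64.1 and 57.2 CPM in control cells. Every TKT-overexpressing library was below every control library. The log2 fold change was -0.21 ± 0.06 (SE, n = 3 per group), 13.4% lower, with an adjusted p = 0.0198 by edgeR. The call was lost without TKT-overexpressing library 1 (adjusted p = 0.120), TKT-overexpressing library 2 (0.0509), control library 1 (0.0549) or control library 2 (0.0725).

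Of 7 listed lipid exporters, 4 were tested, 1 (ABCA1) fell, against a background of 4.93% of genes, and the other 3 did not pass. ABCG1, which exports cholesterol to lipoproteins already formed, had 38, 12 and 8 counts on overexpression and 20, 18 and 40 in control cells, with no separation. ABCA7, a relative of ABCA1 that exports phospholipid, had a log2 fold change of 0.13 (95% interval -0.10 to 0.37), and ABCB4 is given above.

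The other members of subfamily A act mostly inside cells. ABCA3, which fills the lamellar bodies of lung cells with surfactant lipid, lies on chromosome 16 from 2275881 to 2340746 on the minus strand. It had 12.8, 14.1 and 11.4 CPM on overexpression and 9.48, 8.65 and 9.38 CPM in control cells. The groups did not overlap, with TKT-overexpressing library 2 the highest. The log2 fold change was 0.48 ± 0.12 (SE, n = 3 per group), 39.0% higher, with an adjusted p = 0.00979 by edgeR, and 0.0526 without TKT-overexpressing library 2.

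ABCA5, a lysosomal protein linked to cholesterol efflux, lies on chromosome 17 from 69244311 to 69327244 on the minus strand. It had 608, 505 and 593 counts on overexpression and 372, 457 and 410 counts in control cells. Relative to library size, control library 2 came close to the TKT-overexpressing libraries without reaching them. The log2 fold change was 0.38 ± 0.11 (SE, n = 3 per group, adjusted p = 0.0253 by edgeR). Without TKT-overexpressing libraries 1 or 3 the adjusted p was 0.0610 or 0.105, and without control libraries 1 or 3 it was 0.129 or 0.0995.

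ABCA5 stands in a cluster on chromosome 17 with ABCA6, ABCA8, ABCA9 and ABCA10, all on the minus strand, and shares 536 bases with ABCA10. ABCA10, whose substrate is poorly known, had 31, 35 and 22 counts on overexpression and 15, 11 and 15 in control cells. The groups did not overlap (log2 fold change 1.03, 95% interval 0.11 to 1.94, adjusted p = 0.155 by edgeR). ABCA9 had 7, 16 and 13 counts against 6, 10 and 3, and ABCA6 had 4, 12 and 14 against 10, 14 and 1, with overlap in both. ABCA8 had at most 10 counts and was not tested.

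ABCA4, a retinoid flippase of photoreceptors, had 46, 29 and 66 counts on overexpression and 14, 21 and 24 in control cells. The TKT-overexpressing libraries were all higher but differed widely among themselves, and the adjusted p was 0.0565 by edgeR (log2 fold change 1.17, 95% interval 0.37 to 1.98). ABCA2, a lysosomal lipid transporter, had 46.2, 43.2 and 45.6 CPM on overexpression and 46.8, 51.9 and 51.1 CPM in control cells. Those groups lay close without overlap (log2 fold change -0.15, adjusted p = 0.110 by edgeR). ABCA12 and ABCA13 had at most 4 counts in any library.

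Genes with few counts tended upward across the whole table, and the 8 members with a mean under 50 counts, ABCA4, ABCA6, ABCA9, ABCA10, ABCB5, ABCB11, ABCC11 and ABCG1, are among them. Their median log2 fold change was 0.51, with 5 of 8 above zero and 0 called, while that of all 2675 tested genes with such means was 0.11, with 57.9% above zero. The TKT-overexpressing libraries held counts for 18315 to 18739 genes and the control libraries for 17681 to 18067. The part of this difference in the values of the low members was not tested.

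Of 4 tested mitochondrial members and 4 of peroxisomes and lysosomes, edgeR called 0, with 0 at an unadjusted p-value under 0.05. DESeq2 and every other alternative run also called 0. Over all tested genes, edgeR called 10.6% in either direction, and 23.7% had an unadjusted p-value under 0.05. With so few members, 0 calls do not set these groups apart from that background. ABCB10, which serves heme synthesis at the inner membrane, had 20.9, 17.9 and 21.7 CPM on overexpression and 23.0, 22.5 and 23.1 CPM in control cells. The control libraries were tightly grouped and all above the others, yet the adjusted p was 0.213 by edgeR (log2 fold change -0.18, 95% interval -0.37 to 0.00). ABCB8, another protein of the inner membrane, was at 0.01 (95% interval -0.11 to 0.12) and the porphyrin-linked ABCB6 at -0.27 (-0.70 to 0.17).

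In peroxisomes, ABCD3 had a log2 fold change of -0.03 (95% interval -0.12 to 0.06), which is a fold of 0.920 to 1.04. The lysosomal cobalamin carrier ABCD4 was at 0.03 (-0.11 to 0.17) and the lysosomal peptide carrier ABCB9 at -0.04 (-0.33 to 0.24). ABCC8 and ABCC9, the sulfonylurea receptors that regulate potassium channels, had at most 10 and 6 counts and were not tested.

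Of the 4 members without membrane parts, 3 were tested and edgeR called 0 (background 10.6% of genes in either direction). At an unadjusted p-value under 0.05 there were 0 (background 23.7%), and 0 were called by any alternative run. So few members cannot be told apart from that background. ABCE1 had a log2 fold change of -0.01 (95% interval -0.09 to 0.06), ABCF2 of 0.03 (-0.10 to 0.15) and ABCF3 of 0.01 (-0.11 to 0.13). ABCF1, which takes part in translation initiation, had 2, 0 and 0 counts in the TKT-overexpressing libraries and 155, 0 and 125 in the control libraries. Control library 2 was thus at 0 like TKT-overexpressing libraries 2 and 3, and the gene did not reach the filter. ABCF1 lies on chromosome 6 from 30571376 to 30597179. Within 1 Mb of it, 3 of 61 protein-coding genes (4.92%) were tested, against 541 of 982 (55.1%) on the rest of the chromosome. The mean level of ABCF1 rests on 2 of the 3 control libraries.

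Summed over subfamilies, the FPKM ratio of TKT-overexpressing to control cells was 1.03 for all 43 members (exact two-sided permutation test, p = 0.2). The subfamily C sum was 69.3, 69.1 and 74.8 FPKM on overexpression and 63.3, 68.5 and 62.3 FPKM in control cells. Those sums did not overlap and had a ratio of 1.10 ± 0.0757 (exact permutation test, p = 0.1, the smallest p that 3 libraries against 3 allow). The subfamily G sum, nearly all of it ABCG2, did not overlap either, with a ratio of 1.14 ± 0.0528 (exact permutation test, p = 0.1). The ratios of subfamilies A, B, D, E and F lay between 0.975 and 1.01, with exact permutation p-values from 0.3 to 0.9. Without ABCF1, an alternative added after seeing the data, the ratio of subfamily F was 1.02 in place of 0.992. ABCC2 carried most of the C sum.

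Genes around the family were listed as other ABC genes, nuclear receptors and regulators of ABC genes, liver X receptor targets, hepatocyte solute carriers, canalicular scaffold proteins and ribosome partners. Of 62 listed genes, 54 were tested, 3 were higher and 5 lower. These shares, 5.56% and 9.26%, stand against 5.65% and 4.93% of all tested genes, so the share of higher genes was that of the background. NR5A2, a nuclear receptor of bile acid and sterol genes, rose from 38.4 ± 2.73 to 50.6 ± 1.24 CPM (SD, n = 3 each, log2 fold change 0.40, adjusted p = 0.000126 by edgeR). STX3, a membrane fusion protein of apical surfaces, rose from 38.5 ± 1.49 to 49.1 ± 0.407 CPM (SD, n = 3 each, log2 fold change 0.35, adjusted p = 0.000212 by edgeR). AHR, the aryl hydrocarbon receptor, had the smallest of these rises (0.17, adjusted p = 0.0426 by edgeR), which was lost without TKT-overexpressing library 1 (0.183), TKT-overexpressing library 3 (0.131), control library 1 (0.194) or control library 3 (0.0760).

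SREBF1, a regulator of fatty acid synthesis and a known liver X receptor target, fell from 150 ± 5.95 to 111 ± 3.92 CPM (SD, n = 3 each, log2 fold change -0.44, adjusted p = 1.03e-06 by edgeR). SCD, the stearoyl-CoA desaturase, fell from 1699 ± 34.1 to 1308 ± 7.61 CPM (SD, n = 3 each, log2 fold change -0.38, adjusted p = 9.24e-08 by edgeR). Of the 10 listed targets of that receptor outside the family, these 2 were lower and the other 8 did not pass, among them MYLIP at -0.19 and APOE at 0.09, with a median of -0.12 over the list. The liver X receptor genes NR1H3 and NR1H2 were at -0.13 and -0.05 (adjusted p = 0.134 and 0.695 by edgeR).

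HNF4A, a central hepatocyte transcription factor, fell by 0.15 on the log2 scale (adjusted p = 0.00732 by edgeR, and 0.0577 without TKT-overexpressing library 1). Of 9 tested canalicular scaffold and trafficking genes, 1 was higher (STX3, given above) and 2 were lower. The background was 5.65% of genes higher and 4.93% lower. The lower 2 were the scaffold protein NHERF1 and the membrane linker RDX, both found at the canalicular membrane. Their changes were small (log2 fold change -0.14 and -0.13, adjusted p = 0.0422 and 0.0443 by edgeR). For NHERF1 the adjusted p without TKT-overexpressing library 1 or 3 was 0.109 or 0.157, and without control library 1 or 3 it was 0.165 or 0.173. For RDX it was between 0.0540 and 0.177 with each of the 6 libraries left out in turn. CFTR, a chloride channel of subfamily C under another symbol, had 98, 51 and 52 counts against 30, 35 and 46 (log2 fold change 0.76, adjusted p = 0.115 by edgeR). Of 12 tested solute carriers and other transporters, edgeR called 0 (background 10.6% of genes in either direction), with log2 fold changes between -0.38 and 0.72. At an unadjusted p-value under 0.05 there were 2 (background 23.7%), SLCO1B1 and SLC22A9, and limma on log2(FPKM + 1) called SLCO1B1. Of 6 tested ribosome partners, edgeR called 0, 1 of them (ETF1) was under 0.05 unadjusted, and the alternatives called 0. The same backgrounds apply to them. TAP1, TAP2, ABCD2, ABCG4 and RXRG had no entry under these symbols in the deposited counts and were not analysed here.

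**Figure D3:**
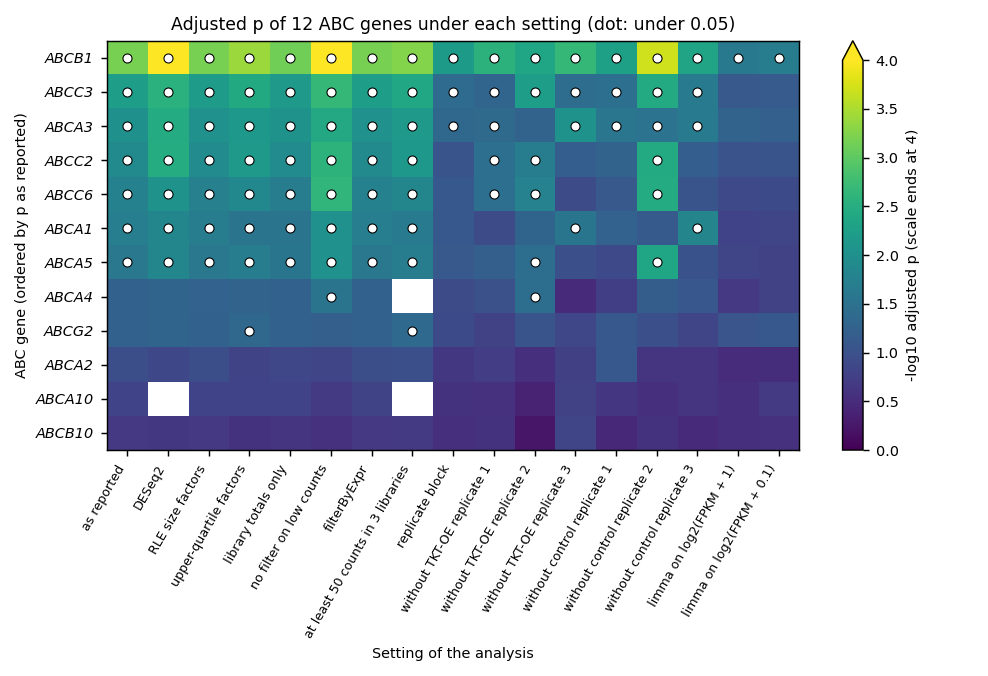
Adjusted p-value (colour, -log10 scale) of the 12 ABC genes with the smallest p-values under the reported analysis and 16 alternatives, with a dot where it was under 0.05 and white where the alternative gave no adjusted p. ABCB1 has a dot in all 17 columns, and ABCA5 and ABCA1 in 10 each.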

How the data were processed

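Paired-end reads of 150 bases were trimmed by the authors with fastp 0.22.0 and aligned with HISAT2 2.1.0 to hg38, per the labels, and counted with featureCounts per the study's methods. The annotation, the strand option and the treatment of reads with several matches are not given in the sources used here. The deposited counts are whole reads per gene symbol without normalization, and the deposited FPKM divide the authors' counts by gene length and library size. For 29 of the 43 members the length implied by the FPKM was within 2% of the GENCODE 29 exon union. Columns of the authors' own comparisons (fold changes and p-values) were not used.

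The test on counts used edgeR 4.0.16 under R 4.3.3 (genes with at least 10 counts in at least 3 libraries, TMM, quasi-likelihood test, no pairing, Benjamini-Hochberg adjustment over 14309 genes, common biological coefficient of variation 0.113). SD is given for levels and SE or 95% intervals for log2 fold changes. Chi-square values per degree of freedom for pairs of libraries were 7.20 to 9.92 within a group and at least 30.8 between groups, so no library was a copy of another. Single sums were compared with an exact two-sided permutation test. The counts of calls and the fold changes of the named members were repeated with DESeq2 1.42.0, with RLE, upper-quartile or no scaling factors, with 3 other filters on low counts, with the replicate number as a block, with each library left out, and with limma 3.58.1 on log2(FPKM + 1) and log2(FPKM + 0.1). The summed levels were repeated as sums of CPM, with each library left out and, chosen after seeing the data, without ABCF1. Level order, ratios and counts of groups without overlap had no alternative. On simulated counts, edgeR recovered 89.5% of 105 changes of 1 and 100% of 92 changes of 2 on the log2 scale among 14129 genes, with 7 false among 193 calls. Recovery of changes smaller than 1, which include those of all called members, was not tested.

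The members, the lists of related genes and the rule for naming genes (all called members and those with the smallest p-values, 12 in all, and the called genes of the lists) were chosen with earlier results of these data known. The values of 2 members are not reported here, and these genes are left out of the plots of levels and fold changes.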

Additional observations from a re-analysis of the deposited data

How the results depend on the processing

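Among the 12 ABC genes with the smallest p-values, 16 alternatives gave 189 fold changes with an adjusted p. None changed sign, 154 stayed on their side of the threshold, 31 lost it and 4 gained it. DESeq2, RLE size factors, library totals and filterByExpr each gave 7 called members, and upper-quartile factors, a minimum of 50 counts or no filter gave 8. With the replicate number as a block, 3 members were called (ABCB1, ABCC3 and ABCA3), 3 higher and 0 lower, and 4 of the related genes, 2 of them lower. Deviations from the group means of equally numbered libraries correlated at 0.00267, -0.0210 and 0.0175 across genes. These values gave no sign of pairing by number, but with 3 libraries per group they cannot exclude it. Limma on log2(FPKM + 1) and on log2(FPKM + 0.1) each called 1 member (ABCB1), 1 higher and 0 lower. The number of related genes called lower was 3 in both, and the second called 5 related genes in all. Upper-quartile factors also gave 3 lower related genes. Without a filter on low counts, 1 member (ABCA4) passed the fold threshold of the study. The causes were not tested.

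With each library left out in turn, 3 to 6 members were called, 3 to 6 higher and 0 to 1 lower, and 0 to 1 passed the fold threshold of the study. The lowest count, 3, came without control library 1, and 4 were called without TKT-overexpressing library 3 or control library 3. The related genes gave 4 to 9 calls, 2 to 5 of them lower. They gave 4 calls without TKT-overexpressing library 1 and 5 without TKT-overexpressing library 3 or control library 1. The summed levels moved by less than the spread between libraries as sums of CPM, with each library left out and without ABCF1. Depth limits the 8 tested members with a mean under 50 counts, whose median standard error was 0.53 on the log2 scale, against 0.06 for the 18 with at least 500.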
